A study of Mus musculus with 12 samples.

Results

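Macrophage genes were followed array by array in 12 cultures of mouse embryonic fibroblasts. Such fibroblasts, cells of connective tissue, are grown out of embryos, here E12.5 to E13.5 ones of C57BL/6 mice, kept in medium with 10% fetal bovine serum. The members are 41 genes used as markers of macrophages and related myeloid cells, chosen with earlier results of these data known and found through the accession that each array probe carries. Of the 41 genes, 40 had a probe, with 53 probes among them, and 38 were among the 14444 genes tested of 21367 named genes on the array. Clec7a had no probe, and Fcgr1 and Spi1 were well above background on shp53 replicates 1 and 3 only, so that they did not pass the filter of all 3 arrays of at least 1 group.

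The cultures carried viral vectors for RASV12, an oncogenic form of RAS, or for shp53, a short hairpin RNA against the mRNA of mouse p53. There were 4 groups of 3 arrays. RASV12-first cells, called TS cells in the study, received RASV12 before shp53. shp53-first cells, called T cells, received shp53 before RASV12. RASV12 cells and shp53 cells received that vector alone. No culture without a vector was analysed here, so no group shows what the fibroblasts held before transduction. The labels of all 4 groups name no step that removes or selects macrophages.

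Macrophages of the mouse embryo arise from yolk sac and fetal liver precursors and settle in nearly every tissue, so that a culture grown from a minced embryo can carry them along. They depend on signals through Csf1r, the receptor for the cytokines Csf1 and Il34, and their identity rests on the transcription factor Spi1 (PU.1). They make complement C1q, take up antibody-coated particles through Fc receptors that signal through the adaptors Fcer1g and Tyrobp, and hold lysosomal proteases, lysozyme and a superoxide-producing oxidase.

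A log2 level here is the log2 processed signal of a probe minus the 75th percentile of its array, and a value of 0 marks that percentile. Each array had 56.6% to 62.4% of its spots well above background by the scanner software's own test, and the number of arrays limits the precision. The p53 transcript Trp53 had log2 levels of -4.14 to -3.83 in RASV12-first, -3.98 to -3.43 in shp53-first, -0.75 to -0.35 in RASV12 and -3.55 to -3.06 in shp53 cells, lower wherever the hairpin was present. The 10 fibroblast markers were well above background on all 12 arrays. In each group 2 of the 3 arrays lay close together and the remaining one apart. Replicates 2 and 3 correlated at 0.996 across genes in RASV12-first and at 0.993 in shp53-first cells, and replicates 1 and 3 at 0.996 in RASV12 and 0.998 in shp53 cells, against 0.967 to 0.981 for the other pairs. The arrays that stood apart were replicate 1 of RASV12-first, replicate 1 of shp53-first, replicate 2 of RASV12 and replicate 2 of shp53. The design text calls the replicates independent, and the arrays of each close pair were on different slides. Counts are therefore given for all 12 arrays, with each close pair averaged as 1 replicate, and without the 4 arrays that stood apart.

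By processed signal, most macrophage genes were lowest in cells with both vectors, low in RASV12 cells and high in shp53 cells. The median log2 level of the 38 tested members was -7.22, -7.49 and -7.85 on RASV12-first replicates 1 to 3, and -6.97, -7.54 and -6.18 on shp53-first replicates 1 to 3. It was -4.15, -3.62 and -3.97 on the RASV12 arrays, and 2.35, -1.74 and 2.36 on the shp53 arrays. The medians of the 4 groups overlapped between both double-vector groups only, and the median of all tested genes lay between -0.40 and -0.31 on every array. Of the 38 members, 10 to 13 were well above background on the RASV12-first arrays, 12 to 16 on the shp53-first arrays, 30 or 31 on the RASV12 arrays and 38 on each shp53 array. Passing the filter depended on those same arrays, so that 38 of 38 in shp53 cells is no finding. Their summed level, in units of the array's 75th percentile, was 6.45 to 9.91 in RASV12-first, 9.63 to 13.2 in shp53-first, 12.8 to 25.8 in RASV12 and 22.4 to 261 in shp53 cells. Outside shp53 cells most of that sum came from the Itgam probe, at log2 levels of 2.25 to 4.18 there. That probe was level across the groups, so the sum says little about the other members in these cells. Under normexp background correction the order among the lower groups was lost. The members' median minus that of all tested genes was then -1.69, -3.09 and -0.11 on the RASV12-first arrays, -2.60, -3.17 and -1.20 on the shp53-first arrays, -2.70, -2.09 and -2.63 on the RASV12 arrays, and 1.65, -0.80 and 2.14 on the shp53 arrays. In such bulk RNA, fewer macrophages and less of this RNA per macrophage cannot be told apart.

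**Figure D1:**
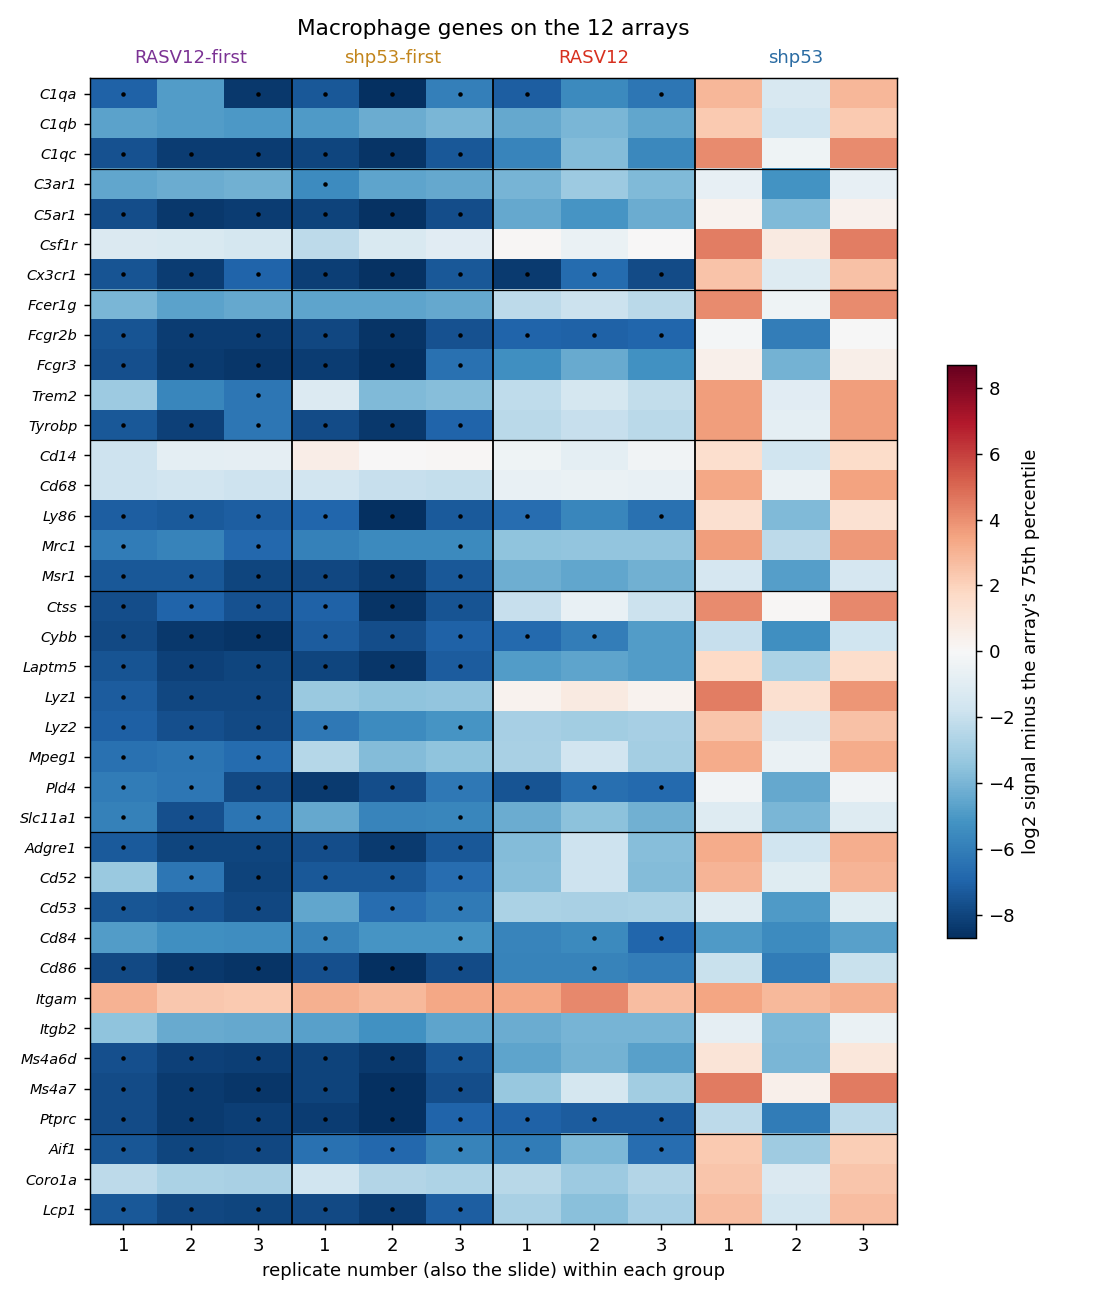
Log2 level (colour, in log2 units against the 75th percentile of the array) of the 38 tested macrophage genes (rows, by role) on the 12 arrays (columns: RASV12-first, shp53-first, RASV12, shp53, 3 replicates each). Black dots mark a probe that was not well above background on that array. shp53 replicates 1 and 3 are the highest columns for most members, with replicate 2 lower between them, and 10 to 16 of the 38 members are free of a dot on the double-vector arrays.

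shp53 replicate 2 differed from the other shp53 arrays in nearly every macrophage gene. It was lower than the mean of replicates 1 and 3 by a median of 4.07 on the log2 scale over the 38 members (range of the difference -5.94 to -0.42), while the median difference over all tested genes was 0.05. The drop was at least 8-fold in 34 members, against 1.54% of all tested genes. Replicates 1 and 3 lay within 0.2 of each other in 35 of the 38 members, and their largest gap was 0.58 (Lyz1). Cx3cr1, the receptor for the chemokine fractalkine and a marker of tissue-resident macrophages, stood at 2.48 and 2.54 on replicates 1 and 3 and at -1.14 on replicate 2. The fibroblast markers moved far less. Their median was 6.20, 5.29 and 6.01 on shp53 replicates 1, 2 and 3. On slide 2 the members' median difference between RASV12 and shp53 was -0.92, with 31 members lower in RASV12, against -5.75 on slide 1 and -5.72 on slide 3, where all 38 were lower.

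**Figure D2:**
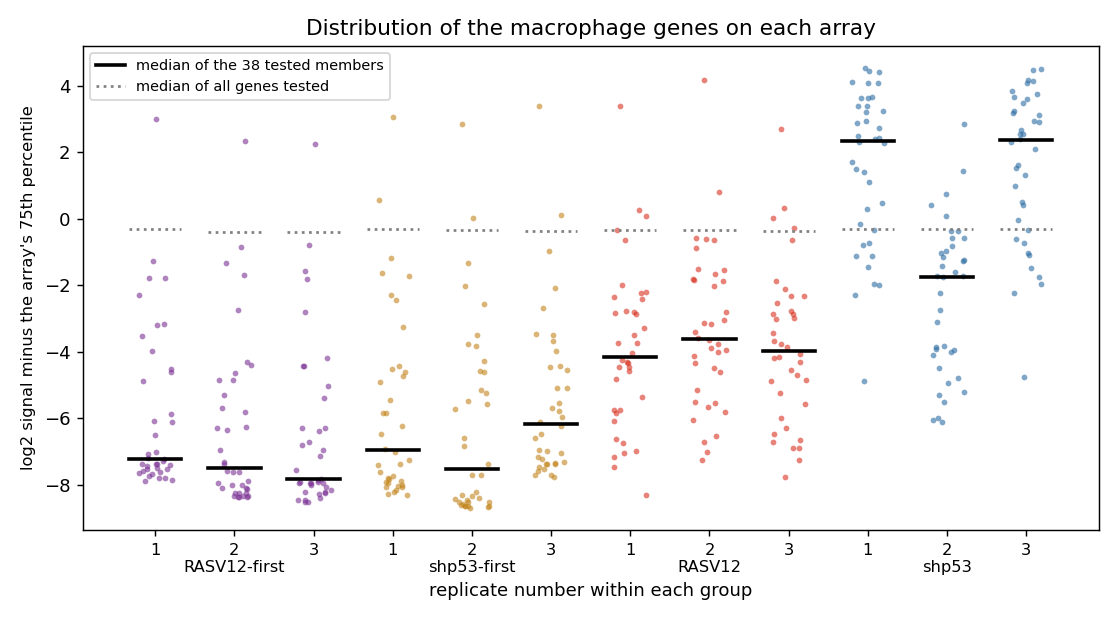
Log2 level against the array's 75th percentile (vertical axis) of each tested macrophage gene (points) on each array (horizontal axis, by group and replicate). Black bars are medians of the 38 members, and dotted grey bars are medians of all tested genes, which lie between -0.40 and -0.31. The members' medians are -7.85 to -6.18 in the double-vector groups, -4.15 to -3.62 in RASV12 cells, and -1.74 or above in shp53 cells.

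The first comparison, RASV12 against shp53 cells, asks how cultures with a single vector differed in macrophage RNA. Of the 38 tested members, 30 were lower and 0 higher in RASV12 cells at a Benjamini-Hochberg adjusted p under 0.05 in limma, with a median log2 fold change of -4.10. Among all tested genes 12.8% were lower and 14.3% higher, and the median was 0.05. There were 30 members with every RASV12 array below every shp53 array, against 23.9% of all tested genes. Of the members, 9 had passed the filter through shp53 cells alone (C1qa, Cx3cr1, Fcgr2b, Ptprc, Aif1, Cd86, Cybb, Pld4 and Ly86), so their calls against shp53 support nothing here or in the gene groups below. All of these but Cd86 were called, and 22 of the other 29 were called lower. Without the arrays that stood apart 37 were lower, Itgam being the exception, against 25.8% of all genes. With close pairs averaged 3 were lower (C1qa, C1qc and Cx3cr1), against 3.34% lower and 3.8% higher of all genes, and of the 29 members that passed otherwise 1 was lower (C1qc), near that share. In that setting 21 had an unadjusted p under 0.05. Without shp53 replicate 1 there were 18 calls, without replicate 3 there were 19, and in a fit restricted to both groups, with slide as block, there were 7, against 12% of all genes.

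All 3 chains of complement C1q, the initiator of the classical complement pathway, fell in RASV12 cells, C1qa having passed the filter through shp53 cells alone. C1qc had log2 levels of -5.75, -3.78 and -5.58 on the RASV12 arrays, against 4.08, -0.38 and 4.14 on the shp53 arrays. The groups did not overlap, and the fold change was -7.65 ± 1.05 (SE, log2 scale, n = 3 each, limma adjusted p = 0.000466). C1qa had -7.16, -5.52 and -6.31 in RASV12 cells, where 1 of 3 arrays was well above background, against 2.89, -1.42 and 2.92 in shp53 cells (fold change -7.79 ± 1.25, adjusted p = 0.00117). C1qb was well above background on all 12 arrays, with -4.47, -3.95 and -4.55 in RASV12 cells, against 2.31, -1.74 and 2.30 in shp53 cells (fold change -5.28 ± 0.88, adjusted p = 0.00146). With close pairs averaged, the adjusted p was 0.0303 for C1qa, 0.0789 for C1qb and 0.0427 for C1qc. The 3 genes lie next to each other on mouse chromosome 4, in the order C1qb, C1qc, C1qa, and each was measured by a probe of its own.

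Of the 4 receptors for growth factors, chemokines and complement fragments, 3 fell in RASV12 cells, among them Cx3cr1, which passed the filter through shp53 cells alone. Cx3cr1 was at -8.31, -6.70 and -7.78 on the RASV12 arrays, none of them well above background, against 2.48, -1.14 and 2.54 on the shp53 arrays. It was at least 157-fold lower in RASV12 cells (adjusted p = 6.3e-05, and 0.0123 with close pairs averaged), a bound taken from the lowest signal well above background on each array. Its other probes gave the same picture, with -8.26 to -7.73 and -8.21 to -7.88 in RASV12 cells, against -4.17 to -0.89 and -1.27 to 2.43 in shp53 cells. Csf1r, the receptor that macrophages need to survive, was at 0.09, -0.61 and 0.02, against 4.45, 0.75 and 4.48, and so remained above background in RASV12 cells (fold change -3.39 ± 0.83, adjusted p = 0.0123). C5ar1, the receptor for complement fragment C5a, was at -4.46, -5.14 and -4.31 in RASV12 cells, against 0.31, -3.87 and 0.41 in shp53 cells (adjusted p = 0.0157). C3ar1, the receptor for C3a, was at -4.04, -3.14 and -3.85 in RASV12 cells, against -0.73, -5.22 and -0.72 in shp53 cells, and did not pass the test. There the groups overlapped through shp53 replicate 2 alone.

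All 5 tested genes for Fc receptors and their ITAM adaptors fell in RASV12 cells, with Fcgr2b tested through shp53 cells alone. Fcer1g, the signalling chain shared by the activating Fc receptors, was at -2.24, -1.88 and -2.32 in RASV12 cells, against 4.09, -0.36 and 4.09 in shp53 cells (fold change -4.75 ± 0.94, adjusted p = 0.00408). A second adaptor, Tyrobp, was at -2.34, -2.03 and -2.34, against 3.64, -0.83 and 3.67 (adjusted p = 0.0097). Trem2, a lipid-sensing receptor that signals through Tyrobp, was at -2.20, -1.53 and -2.12, against 3.64, -0.96 and 3.61 (adjusted p = 0.0364). Of the receptors themselves, the inhibitory Fcgr2b was not well above background on any RASV12 array and was at least 15.3-fold lower by the group mean (adjusted p = 0.0152). No bound holds on slide 2, where Fcgr2b was at -6.00 in shp53 cells. The lowest signal well above background on RASV12 replicate 2 was -5.71. The activating Fcgr3 was measured on all 3 arrays of either group and fell by 3.94 on the log2 scale (adjusted p = 0.0212). Fcgr1, the high-affinity receptor, which was not tested, had -8.32, -7.54 and -8.30 in RASV12 cells, against -0.85, -6.36 and -1.02 in shp53 cells.

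Among lysosomal, oxidase and antimicrobial proteins, 7 of 8 fell in RASV12 cells, Pld4 and Cybb of these being tested through shp53 cells alone. Ctss, the cysteine protease cathepsin S that trims the MHC class II invariant chain, was at -2.00, -0.64 and -1.88 in RASV12 cells, against 4.12, 0.09 and 4.16 in shp53 cells (fold change -4.30 ± 0.94, adjusted p = 0.00706). The lysozyme gene Lyz2 was at -2.88, -3.04 and -2.86, against 2.44, -1.28 and 2.56 (adjusted p = 0.00429). Its paralog Lyz1 was at 0.28, 0.80 and 0.32, against 4.43, 1.42 and 3.84 (fold change -2.77 ± 0.61, adjusted p = 0.00727). Lyz1 and Lyz2 are neighbours on chromosome 10, and their transcripts are alike enough that each probe could carry signal of the other gene. Mpeg1, a pore-forming protein that kills engulfed bacteria, was at -2.82, -1.67 and -2.98 in RASV12 cells, against 3.25, -0.58 and 3.25 in shp53 cells (adjusted p = 0.00403). Laptm5, Pld4 and Cybb, the last being the catalytic subunit of the phagocyte oxidase, also fell, by 4.95, by at least 19.5-fold and by 2.86 on the log2 scale for Laptm5, Pld4 and Cybb in that order. Slc11a1, a metal transporter of the phagosome, was at -4.33, -3.60 and -4.19 in RASV12 cells, against -1.13, -3.96 and -1.09 in shp53 cells, with an adjusted p of 0.0761.

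Of 5 tested pattern recognition and scavenger receptors, 3 fell in RASV12 cells, Ly86 of these being tested through shp53 cells alone. Mrc1, the mannose receptor, was at -3.50, -3.41 and -3.45, against 3.65, -2.25 and 3.74 (fold change -5.17 ± 1.26, adjusted p = 0.012). Cd68, a lysosomal glycoprotein, was at -0.64, -0.57 and -0.64, against 3.39, -0.57 and 3.48 (adjusted p = 0.0365), so that the lowest shp53 array lay at the RASV12 level. Ly86, a partner of a Toll-like receptor relative, fell by 5.87 on the log2 scale (adjusted p = 0.00378). The scavenger receptor Msr1 had an adjusted p of 0.108, with -4.25, -4.49 and -4.16 in RASV12 cells, against -1.44, -4.79 and -1.48 in shp53 cells. Cd14, the co-receptor for bacterial lipopolysaccharide, was at -0.35, -0.88 and -0.28, against 1.49, -1.74 and 1.60, and its fold change of -0.95 ± 0.74 had an adjusted p of 0.377.

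Of 10 leukocyte surface and adhesion proteins, 6 fell, of which Ptprc was tested through shp53 cells alone, as was Cd86, which was not called. Ms4a7, a tetraspan protein of macrophages, was at -3.28, -1.52 and -3.02 in RASV12 cells, against 4.54, 0.42 and 4.50 in shp53 cells (fold change -5.76 ± 0.95, adjusted p = 0.0014). Adgre1, the F4/80 antigen, was at -3.75, -1.81 and -3.69, against 3.21, -1.73 and 3.18 (adjusted p = 0.0119). Here the highest RASV12 array, replicate 2, came within 0.1 of the lowest shp53 array. Ptprc, the pan-leukocyte antigen CD45, was not well above background on any RASV12 array and was at least 5.54-fold lower by the group mean (adjusted p = 0.0104). No bound holds on slide 2, where Ptprc was at -6.07 in shp53 cells. The lowest signal well above background on RASV12 replicate 2 was -5.71. Cd52, Ms4a6d and the integrin chain Itgb2 fell by 4.73, 3.84 and 2.38 on the log2 scale for Cd52, Ms4a6d and Itgb2 in that order. Cd53, a tetraspanin, was at -2.78, -2.80 and -2.77, against -1.11, -4.94 and -1.03, with an adjusted p of 0.77. The T cell costimulator Cd86 had an adjusted p of 0.0627, at -5.84, -5.81 and -5.98, against -1.95, -6.11 and -1.95. In these genes too, shp53 replicate 2 alone lay among or below the RASV12 arrays. Of the actin-associated proteins, Lcp1 (L-plastin), Coro1a and Aif1 (Iba1) all fell, by 4.38, 3.90 and 5.96 on the log2 scale for Lcp1, Coro1a and Aif1 in that order (adjusted p from 0.00502 to 0.00633), Aif1 being tested through shp53 cells alone. Spi1, the only transcription factor of the list, was not tested, with -8.39, -7.63 and -8.33 in RASV12 cells, against -3.55, -7.54 and -3.69 in shp53 cells.

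**Figure D3:**
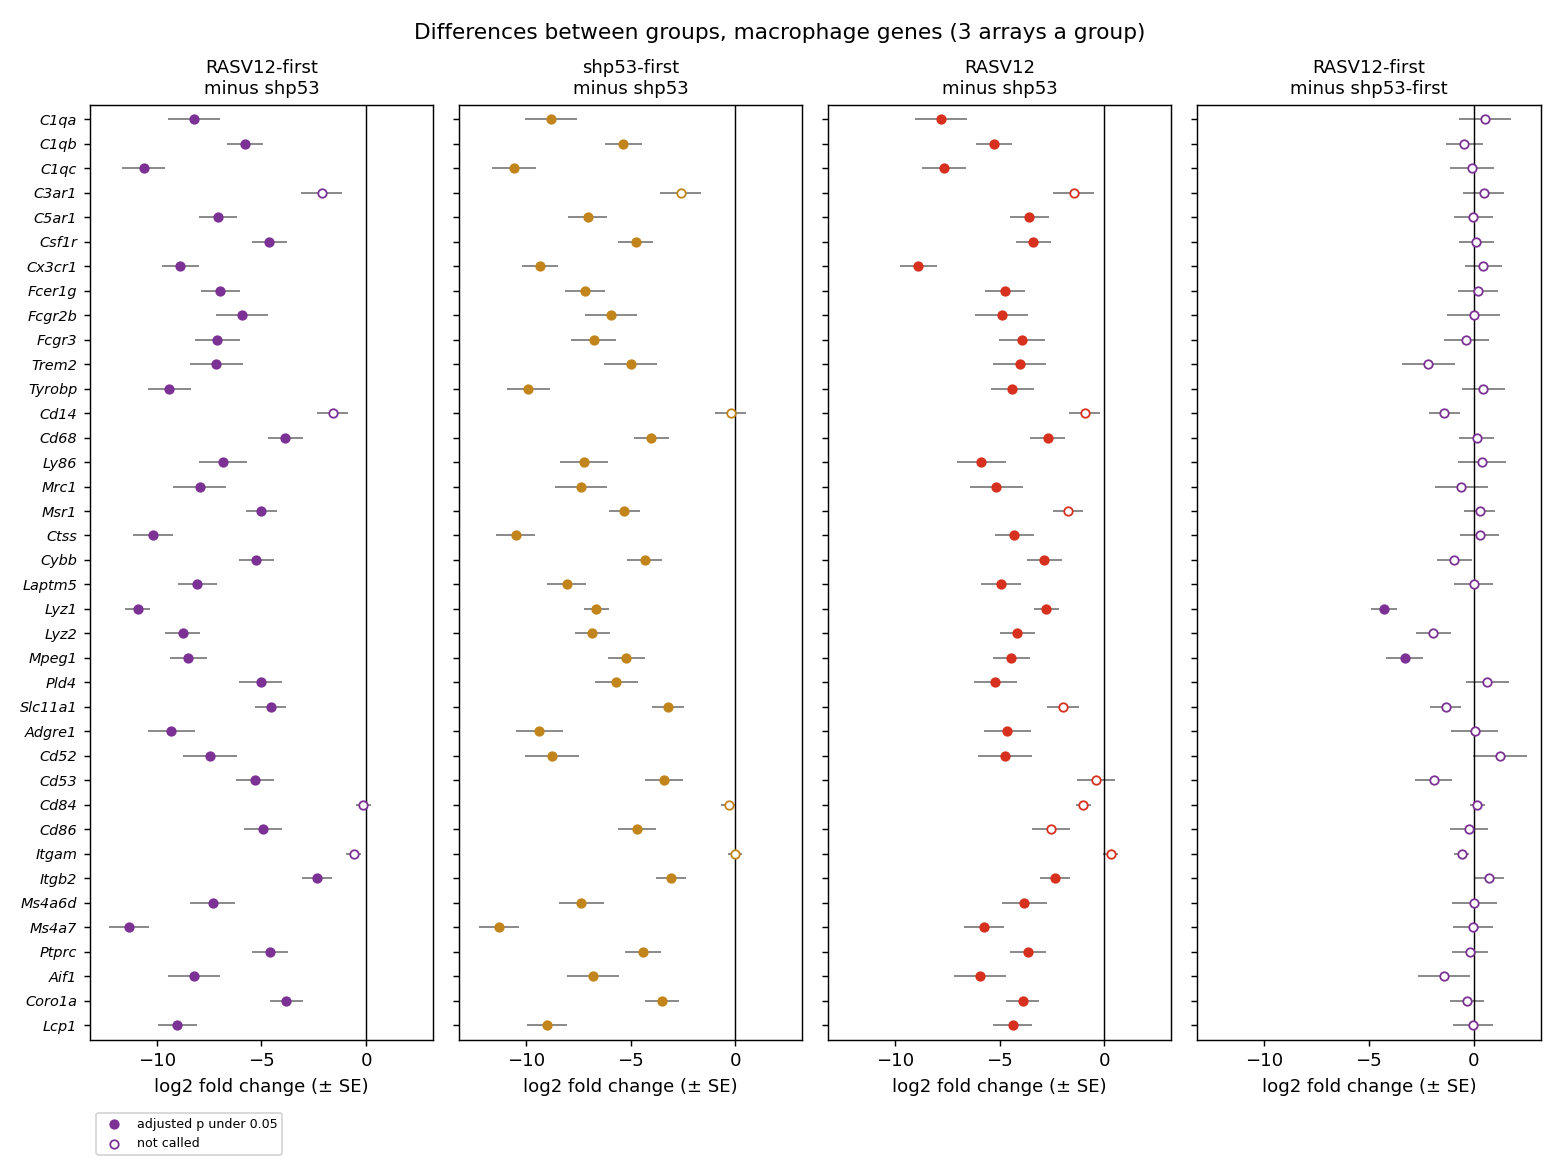
Log2 fold change ± SE (horizontal axis) of each tested macrophage gene (rows, by role) in 4 comparisons from limma, 3 arrays a group. Filled points have an adjusted p under 0.05 over all genes tested. Filled points number 34, 34, 30 and 2 from left to right, all of them below 0.

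Both double-vector groups had less macrophage RNA than shp53 cells. In RASV12-first cells 34 of 38 members were lower than in shp53 cells and 0 higher, against 23.8% lower and 21.7% higher of all tested genes. In shp53-first cells 34 were lower and 0 higher, against 20.3% lower and 17.3% higher. The members' median log2 fold change was -7.01 in RASV12-first and -6.29 in shp53-first cells, each against shp53, while the median of all tested genes was 0.02 and 0.03 in these comparisons. Both use the same shp53 arrays. Without the 9 members that passed the filter through shp53 alone, 25 of 29 were lower in either group. In each, 33 members had no overlap with shp53, against 28.7% of all genes in RASV12-first and 27.4% in shp53-first cells. With close pairs averaged, 24 were lower in RASV12-first (10.4% lower and 6.79% higher of all genes) and 20 in shp53-first cells (6.98% lower and 4.8% higher). Without the arrays that stood apart there were 37 (36.2% of all genes) in RASV12-first and 36 (33% of all genes) in shp53-first cells. The same 4 members were not called in either group: Cd14, C3ar1, Cd84 and Itgam.

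In the double-vector groups most members were at background. In RASV12-first cells 24 of 38 members were not well above background on any array, and in shp53-first cells 21, against 4 in RASV12 cells (Cx3cr1, Fcgr2b, Ptprc and Pld4) and 0 in shp53 cells. Ms4a7 was at -7.79, -8.33 and -8.45 on the RASV12-first arrays, at -8.08, -8.65 and -7.72 on the shp53-first arrays, and at 4.54, 0.42 and 4.50 on the shp53 arrays. It was at least 565-fold lower in RASV12-first and at least 598-fold lower in shp53-first than in shp53 cells (adjusted p = 9.08e-06 and 1.55e-05). For C1qc the bounds were 389-fold lower in RASV12-first and 412-fold lower in shp53-first cells, for Ctss 440-fold and 466-fold, for Tyrobp 284-fold and 301-fold, and for Adgre1 187-fold and 198-fold, each given as at least that much. With so many members at background, the order among these bounds follows the level in shp53 cells.

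Members that stayed well above background on all arrays of both double-vector groups were C1qb, Csf1r, Cd68, Cd14, Fcer1g, Itgam, Itgb2 and Coro1a. Csf1r was at -1.27, -1.34 and -1.56 in RASV12-first and at -2.29, -1.34 and -0.97 in shp53-first cells, against 4.45, 0.75 and 4.48 in shp53 cells (fold change -4.62 ± 0.83 and -4.76 ± 0.83, adjusted p = 0.0013 and 0.00146). Cd68 was at -1.80, -1.69 and -1.81 in RASV12-first and at -1.64, -2.02 and -2.08 in shp53-first cells, so that it varied by less than 0.5 over these 6 arrays. Fcer1g was at -3.99, -4.63 and -4.43 in RASV12-first and at -4.61, -4.62 and -4.46 in shp53-first cells. Levels of different genes are not set against each other here, since each rests on a different probe. Cd14 and Itgam did not follow the rest in the fit of all 12 arrays, where neither was called in any of the 6 comparisons. Without the arrays that stood apart, Cd14 was called lower in each comparison with shp53, and Itgam in RASV12-first against shp53 (25.8% to 36.2% of all genes lower). Against RASV12, Cd14 was then lower in RASV12-first and higher in shp53-first cells. Cd14 was at -1.80, -0.84 and -0.80 in RASV12-first and 0.57, 0.03 and 0.12 in shp53-first cells, against 1.49, -1.74 and 1.60 in shp53 cells.

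By processed signal, part of the macrophage genes were lower in both double-vector groups than in RASV12 cells. Against RASV12 cells, 17 members were lower in RASV12-first cells and 0 higher, with 21.7% of all tested genes lower and 17.2% higher. In shp53-first cells 13 were lower and 0 higher, with 15.1% lower and 10.2% higher of all genes. The members' median log2 fold change was -2.48 in RASV12-first and -1.42 in shp53-first cells, against -0.07 and -0.05 for all tested genes, and both comparisons share the RASV12 arrays. Under normexp these members' medians were 0.99 in RASV12-first and 0.33 in shp53-first cells (0.20 and 0.12 over all tested genes). Of the 38 members, 6 were lower in RASV12-first and 13 in shp53-first cells. There limma called 0 in either (3.63% and 0.845% lower of all genes), with 2 and 1 at an unadjusted p under 0.05. There were 29 members below RASV12 without overlap in RASV12-first (28.3% of all genes) and 26 in shp53-first cells (24.7% of all genes). With close pairs averaged, 3 were lower in RASV12-first (Ctss, Lyz1 and Ms4a7; 6.91% of all genes, with 14 at an unadjusted p under 0.05) and 0 in shp53-first cells in limma (1.91% lower and 0.81% higher of all genes, with 12 at an unadjusted p under 0.05). Without the arrays that stood apart, 31 were lower and Cd84 higher in RASV12-first (37.3% lower and 29.5% higher of all genes). With the replicate number as a block, shp53-first cells had 12 lower and 0 higher (15.1% lower and 10.8% higher of all genes). Without the arrays apart, 27 were lower in shp53-first cells and C1qb, Cd14 and Cd84 higher (33.3% and 24.8% of all genes).

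Ctss was called against RASV12 in both double-vector groups. It was at -7.68, -6.95 and -7.57 in RASV12-first and at -7.03, -8.53 and -7.53 in shp53-first cells, none of them well above background, against -2.00, -0.64 and -1.88 in RASV12 cells. It was at least 22.4-fold lower in RASV12-first and at least 23.7-fold lower in shp53-first cells (adjusted p = 0.000914 and 0.0014). Tyrobp was at least 13.48-fold and 14.3-fold lower in RASV12-first and shp53-first cells than in RASV12 cells. Ms4a7 was at least 10.4-fold and 11.1-fold lower in RASV12-first and shp53-first cells, and Lcp1 at least 7.33-fold and 7.76-fold. These 4 members did not overlap between either double-vector group and RASV12. Under normexp background correction 21 of the called member results changed direction, all of them in comparisons of a double-vector group with RASV12 or with the other double-vector group. The calls of Ctss kept their direction there, while Tyrobp, Ms4a7 and Lcp1 in RASV12-first cells did not.

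**Figure D4:**
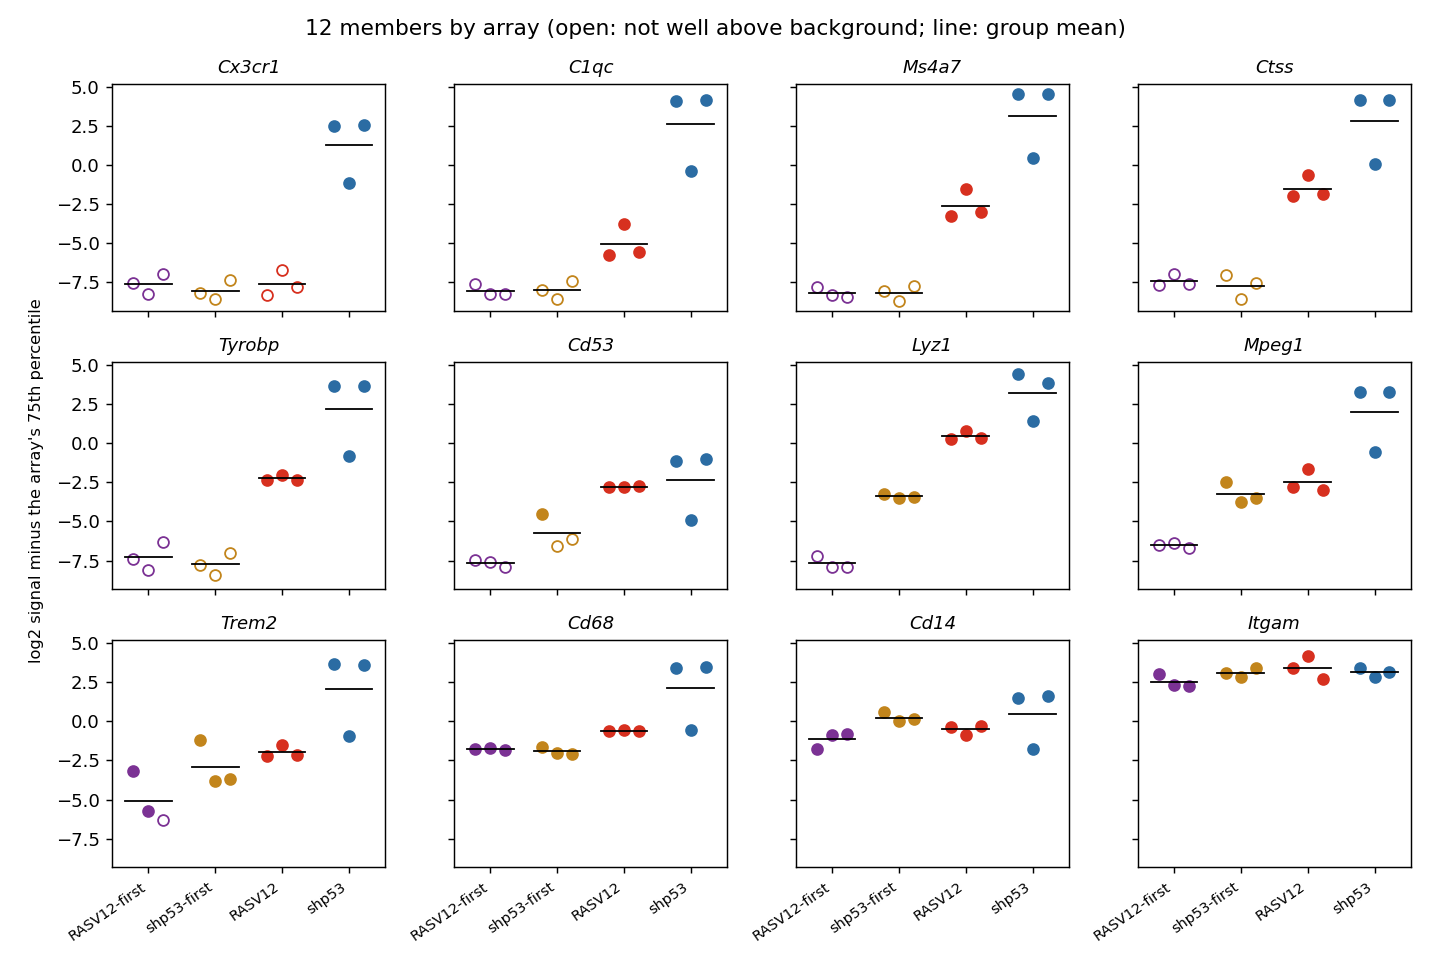
Log2 level against the array's 75th percentile (vertical axis) of 12 macrophage genes on each array, by group (horizontal axis, with replicates 1 to 3 side by side). Open circles were not well above background, and lines are group means. Cx3cr1 is at background outside shp53 cells, Ctss and Tyrobp at background in both double-vector groups only, Lyz1 and Mpeg1 in RASV12-first cells only, and Itgam is level in all groups.

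The order of the vectors separated few macrophage genes. In RASV12-first against shp53-first cells, Lyz1 and Mpeg1 were lower and 0 members higher, with 8.47% of all tested genes lower and 7.33% higher and a members' median log2 fold change of -0.01. Under normexp the fold changes of Lyz1 and Mpeg1 were 0.23 and 0.13, with 0 members called (0.353% lower and 0.0969% higher of all genes). With extreme local backgrounds replaced 0 were called (4.74% lower and 4.15% higher of all genes). In both settings 0 members had an unadjusted p under 0.05 in limma. Lyz1 was at -7.23, -7.89 and -7.93 in RASV12-first cells, not well above background on any array, against -3.26, -3.49 and -3.46 in shp53-first cells, where it was on all 3. It was at least 6.02-fold lower in RASV12-first cells (limma adjusted p = 0.00104, and 0.0559 with close pairs averaged). Mpeg1 was at -6.50, -6.35 and -6.72, not well above background, against -2.45, -3.78 and -3.48 on 3 arrays well above it, and was at least 6.74-fold lower (adjusted p = 0.0296, and 0.233 with close pairs averaged). With close pairs averaged limma called 0 members (2.28% lower and 0.651% higher of all genes), and 2 had an unadjusted p under 0.05. Without any 1 of the 6 arrays of these groups, 1 member was called.

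Some further members leaned the same way without passing the test. The members as a set did not, since 20 of the 38 had a negative log2 fold change and the others a positive one. Trem2 was at -3.18, -5.71 and -6.30 in RASV12-first cells, against -1.20, -3.83 and -3.68 in shp53-first cells (fold change -2.16 ± 1.26, adjusted p = 0.296). Here the arrays that stood apart, both of them replicate 1, were the highest of their groups. Lyz2 was at -7.07, -7.63 and -7.86, against -6.22, -5.48 and -5.10 (adjusted p = 0.157). Cd53 was at -7.45, -7.58 and -7.93, against -4.52, -6.60 and -6.13 (adjusted p = 0.195). There were 8 members with every RASV12-first array below every shp53-first array, against 16.1% of all tested genes, which is not far above that share. Arrays of these groups with the same number deviated together across genes (correlation of their deviations 0.60, 0.45 and 0.32), and they shared a slide. In a fit restricted to both groups, with slide as block, 7 members were lower (Aif1, Cd53, Lyz1, Lyz2, Mpeg1, Slc11a1 and Trem2), against 9.63% of all genes. With the block in the fit of all 12 arrays, Lyz1 and Mpeg1 were the calls (8.53% lower and 7.17% higher of all genes). Without the arrays that stood apart, 10 were lower and Cd68 was higher (24.1% lower and 24% higher of all genes), so that the lower calls were near the share of all genes.

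Several members had more than 1 probe, and not all of them agreed. Itgam, the integrin chain CD11b, was level by its brightest probe, with 3.01, 2.33 and 2.25 in RASV12-first, 3.07, 2.85 and 3.39 in shp53-first, 3.38, 4.18 and 2.70 in RASV12 and 3.40, 2.84 and 3.12 in shp53 cells. A dimmer Itgam probe instead followed the other members, with -6.17 to -5.30 in RASV12-first, -5.59 to -5.11 in shp53-first and -5.28 to -4.56 in RASV12 cells, against -2.30, -5.14 and -2.52 in shp53 cells. Cd84, a leukocyte receptor of the SLAM family, was at -5.39 to -4.87 in RASV12-first and -5.50 to -4.75 in shp53 cells by the probe that stands for it. Its other probe was at -7.96 to -7.42 in RASV12-first cells, against -1.05, -5.01 and -0.94 in shp53 cells. The direction of Itgam and Cd84 thus depended on the probe. For Csf1r, 1 of 3 probes was level, at -1.68 to -1.21 in RASV12-first and -1.70 to -0.85 in shp53 cells, while the third probe was at -6.64 to -6.38, against -0.41, -4.36 and -0.48.

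RASV12 replicate 2, which stood apart, was the highest RASV12 array for several members. C1qc was at -3.78 there and at -5.75 and -5.58 on replicates 1 and 3, Aif1 at -3.88 against -6.07 and -6.65, Ms4a7 at -1.52 against -3.28 and -3.02, and Cd52 at -1.83 against -3.74 and -3.77. Others did not follow. Lyz2 was at -3.04 against -2.88 and -2.86, and Lcp1 at -3.65 against -2.84 and -2.87. On slide 2, where this array met the low shp53 replicate 2, single-vector cultures were nearest to each other.

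Many other macrophage and myeloid genes were lower in RASV12 than in shp53 cells. Of 60 such genes, 43 were tested, and 25 were lower and 0 higher (12.8% lower and 14.3% higher of all tested genes), among them the kinase Btk and the receptor Tlr1. Btk was at -7.17, -7.56 and -7.39 in RASV12 cells, none of them well above background, against -1.27, -5.01 and -1.10 in shp53 cells, and was at least 11.7-fold lower (adjusted p = 0.00145). Btk was well above background on 4 arrays and passed the filter through shp53 cells alone, so its call supports nothing here. Such genes, Folr2 (4 arrays) among them, were not set aside in the counts of this list. Without the arrays that stood apart 39 were lower and 1 higher (25.8% lower and 32.7% higher of all genes). With close pairs averaged 1 was lower and 0 higher (3.34% lower and 3.8% higher of all genes), no more than that share. Against shp53 cells, 34 of the 43 were lower and 2 higher in RASV12-first cells, and 32 lower and 1 higher in shp53-first cells (23.8% and 20.3% of all tested genes lower in RASV12-first and shp53-first cells). With close pairs averaged these were 19 lower in RASV12-first (10.4% of all genes) and 15 in shp53-first cells (6.98% of all genes). Not every gene kept the members' order. Tlr1 was at -4.48, -4.94 and -4.80 in RASV12-first cells, against -8.49, -8.03 and -8.43 in RASV12 cells, and was called higher there (adjusted p = 0.00635). Clec4a2 was higher in RASV12-first cells than in shp53 cells, and Gpnmb was higher in both double-vector groups. Clec12a, Cd163, Timd4, Ccr1 and Ccr2 were not well above background on any array.

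Several factors that support or attract macrophages were higher in RASV12 than in shp53 cells, some of them in both double-vector groups too. Of 9 tested genes, 6 were higher and 0 lower in RASV12 than in shp53 cells, against 14.3% higher of all tested genes. With close pairs averaged 3 were higher, against 3.8% of all genes. Csf1, the main ligand of Csf1r, was at 2.60, 3.71 and 3.67 in RASV12-first and at 2.23, 3.59 and 3.62 in shp53-first cells. It was at 5.26, 5.02 and 5.30 in RASV12 cells, against 3.17, 2.12 and 3.27 in shp53 cells (fold change 2.34 ± 0.44, adjusted p = 0.00317, and 0.0656 with close pairs averaged). Il34, the other ligand of Csf1r, was at -1.99, -1.38 and -1.92 in RASV12 cells, against -2.04, -2.80 and -2.21 in shp53 cells, with no call. The monocyte attractants Ccl2 and Ccl7 were 3.17 ± 0.36 and 2.51 ± 0.23 higher on the log2 scale in RASV12 cells (adjusted p = 0.00014 and 3.4e-05), and Csf2, the cytokine GM-CSF, was at least 28.2-fold higher (adjusted p = 6.3e-05). Ccl2, Ccl7 and Csf2 were also called up against shp53 in each double-vector group. Called down there were Il34 and Cx3cl1 with RASV12 first, and Cx3cl1 with shp53 first. The list's summed level was 194 to 224 in RASV12-first and 277 to 354 in shp53-first cells. It was 340 to 394 in RASV12 and 31.2 to 72.4 in shp53 cells. Within shp53 cells, Csf1, Ccl2 and Ccl7 were each lowest on replicate 2, the array with the least macrophage RNA, while Cx3cl1, the ligand of Cx3cr1, was highest there, at 0.65, 1.85 and 0.71 on replicates 1 to 3. The part of these factors in the members' levels was not tested.

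Markers of other blood cells were partly at background, and some shared part of the pattern. Pf4, a platelet chemokine, was not well above background in either double-vector group and stood at 0.24, 0.33 and 0.42 in RASV12 cells, against 2.69, -2.03 and 2.74 in shp53 cells. It dropped on shp53 replicate 2 like the members, and RASV12 against shp53 had an adjusted p of 0.598. Ppbp, another platelet chemokine, was also not well above background in either double-vector group, but stood at 2.65, 2.53 and 2.91 in RASV12 cells, against -0.93, -0.11 and -0.72 in shp53 cells (adjusted p = 1.44e-05). The rest of the 6 megakaryocyte and platelet markers did not share this. Itga2b was at -6.28 to -5.07 over the 12 arrays and was not called in any comparison. Gp9, Gp1ba and Gp5 were not well above background on any array. Blnk, an adaptor of the B cell receptor, was at -5.47, -5.38 and -6.19 in RASV12-first, -2.08, -5.17 and -5.09 in shp53-first, 0.63, 1.20 and 0.76 in RASV12 and 1.63, -2.29 and 1.59 in shp53 cells, and was called lower in both double-vector groups against either single vector. Of 13 T and NK cell markers 6 were tested, and Cd3d, Cd3g, Cd247, Cd8a, Ncr1 and Gzma were not well above background on any array. Also at background throughout were the B cell markers Cd79a, Cd79b, Ms4a1 and Fcrla, the mast cell markers Cpa3, Fcer1a, Ms4a2 and Cma1, and the erythroid markers Alas2, Hbb-b1, Hba-a1 and Klf1. Other genes of the B cell, mast cell and erythroid lists were well above background on all 12 arrays, namely Cr2 (B cell), Gata2 and Tpsb2 (mast cell) and Epor (erythroid). So were 4 T and NK cell markers, among them Cd3e, Prf1 and Lck. Lck was at -0.85, -0.40 and -0.32 in RASV12-first cells, against -2.95, -2.61 and -3.07 in shp53 cells. In that comparison 2 T and NK cell markers were higher (Lck and Klrd1) and 3 lower, with 21.7% higher and 23.8% lower of all tested genes. The mast cell marker Mcpt4 was at -0.02, 0.97 and -0.005 in RASV12 cells, against -6.20, -4.69 and -5.54 in shp53 cells. Mcpt4, Cr2 and the NK cell marker Klrd1 were called higher in RASV12 than in shp53 cells, as were 14.3% of all tested genes. Of the neutrophil markers 4 of 6 tested were higher and 0 lower in RASV12 than in shp53 cells, led by S100a8, at least 616-fold higher (adjusted p = 1.1e-05), while Cxcr2, Ltf, Ngp and Retnlg were not well above background on any array. The summed level of the neutrophil list was 31.1 to 43.5 in RASV12-first, 38.5 to 49.4 in shp53-first, 28.6 to 68.7 in RASV12 and 24.6 to 27.1 in shp53 cells. Fibroblast markers were lower in 4 of 10 and higher in 0 in RASV12 against shp53 cells, with 12.8% lower and 14.3% higher of all tested genes. Without the arrays that stood apart 7 were lower (25.8% of all genes), and with close pairs averaged 1 (3.34%). Their summed level was 375 to 648 in RASV12-first, 330.3 to 500.4 in shp53-first, 322 to 499 in RASV12 and 454 to 650.2 in shp53 cells. The part of these cell types in the members' values was not tested.

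**Figure D5:**
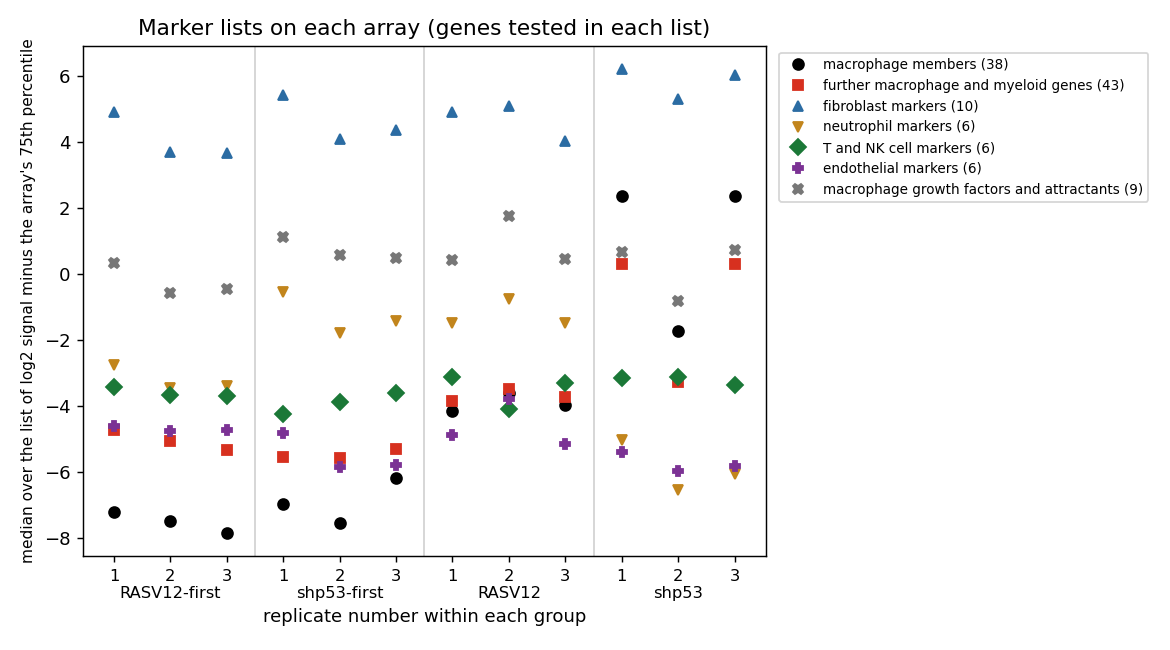
Median log2 level (vertical axis, against the 75th percentile of the array) of the tested genes of 7 lists on each array (horizontal axis, by group and replicate). Only the course of one list across arrays can be read, since lists rest on different probes. The macrophage members and the further myeloid genes drop together on shp53 replicate 2, where the members are at -1.74, while the T and NK cell list stays between -4.24 and -3.12 on all arrays.

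The genes whose 12 array values were closest to the members' median profile, each centred on its own mean, were Ptpro, Nfam1, Folr2, Hcls1, Slc7a8, Cd72, Casp1, Ncf4, Igsf6, Cd48, Wdfy4, Rac2, Lrrc25, Stab1 and Hpgd. Their mean absolute difference from that profile was 0.28 to 0.58 on the log2 scale over 12 arrays, against a median of 2.26 over all tested genes. Among the members, Fcer1g (0.30) and Fcgr3 (0.42) lay closest, and Cd84 (2.30) and Itgam (2.13) farthest. Hcls1, an actin-binding substrate of leukocyte kinases, was at -5.59, -5.38 and -5.32 in RASV12-first, -5.58, -5.58 and -5.13 in shp53-first, -3.11, -2.79 and -2.97 in RASV12 and 1.92, -2.04 and 1.97 in shp53 cells. Stab1, a scavenger receptor, was at -5.88, -5.90 and -6.02 in RASV12-first, -6.26, -5.63 and -5.30 in shp53-first, -4.50, -5.38 and -4.60 in RASV12 and 2.47, -1.98 and 2.37 in shp53 cells. The likeness rests on arrays of 4 groups and is given as a description.

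The promoters of the members were read for the letters bound by Spi1 (PU.1), a factor of the ETS family, since the members moved together. RefSeq's promoter table (GRCm38.p6), with 250 bases before and 50 after each start site, matched 30 of the 41 genes, in 36 windows. The letters AGGAAGT, on either strand, were in 12 of 36 member windows (33.3%) and in 9.35% of all 32851 windows. For the longer GAGGAAGT, which overlaps it, the shares were 11.1% and 3.2%, for GAGGAAG 30.6% and 13.6%, and for the GAGGAA nested in both 58.3% and 28.3%. A match is a run of letters and shows no binding. The 250 bases before the start site are printed for 5 members that hold AGGAAGT there, the adjacent C1qb and C1qc (chr4:136886201-136886450 and chr4:136892915-136893164, minus strand), the adjacent paralogs Lyz1 and Lyz2 (chr10:117292869-117293118 and chr10:117282273-117282522, minus strand) and C5ar1 (chr7:16259339-16259588, minus strand). Each runs 5′ to 3′ on the gene's strand, and capitals mark the match, which reads ACTTCCT because it lies on the other strand in all 5.
C1qb: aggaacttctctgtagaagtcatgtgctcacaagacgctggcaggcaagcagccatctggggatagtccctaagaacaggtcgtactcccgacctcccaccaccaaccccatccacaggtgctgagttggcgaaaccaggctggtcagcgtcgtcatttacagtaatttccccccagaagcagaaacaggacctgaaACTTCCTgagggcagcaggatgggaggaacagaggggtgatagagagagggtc
C1qc: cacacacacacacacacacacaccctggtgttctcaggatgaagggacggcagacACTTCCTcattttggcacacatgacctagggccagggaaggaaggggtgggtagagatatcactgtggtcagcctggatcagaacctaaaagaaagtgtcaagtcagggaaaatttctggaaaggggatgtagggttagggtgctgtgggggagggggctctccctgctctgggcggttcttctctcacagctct
Lyz1: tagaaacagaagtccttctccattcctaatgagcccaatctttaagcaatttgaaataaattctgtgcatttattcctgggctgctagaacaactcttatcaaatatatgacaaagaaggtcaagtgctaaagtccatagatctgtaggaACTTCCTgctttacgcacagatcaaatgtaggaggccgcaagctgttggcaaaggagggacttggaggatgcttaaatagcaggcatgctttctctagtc
Lyz2: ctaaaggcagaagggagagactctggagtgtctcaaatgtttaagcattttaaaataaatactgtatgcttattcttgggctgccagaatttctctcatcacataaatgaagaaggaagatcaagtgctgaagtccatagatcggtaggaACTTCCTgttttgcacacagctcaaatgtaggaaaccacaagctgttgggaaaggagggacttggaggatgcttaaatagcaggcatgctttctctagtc
C5ar1: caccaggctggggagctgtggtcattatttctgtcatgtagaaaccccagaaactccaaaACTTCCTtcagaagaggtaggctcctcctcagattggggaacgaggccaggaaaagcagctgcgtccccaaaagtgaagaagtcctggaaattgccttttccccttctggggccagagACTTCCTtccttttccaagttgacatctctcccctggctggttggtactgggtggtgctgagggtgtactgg
The match begins 53 bases before the start site in C1qb, 195 in C1qc, 100 in both Lyz1 and Lyz2, and 190 and 72 in C5ar1, which holds it at 2 places. The Lyz1 and Lyz2 stretches have the same base at 152 of 250 positions (60.8%) when laid side by side without gaps. The data showed Lyz1 well above background in shp53-first cells on all 3 arrays and Lyz2 on 1 of 3, with AGGAAGT at the same place in both.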

How the data were processed

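RNA of 12 cultures (100 ng each, Cy3 label) was hybridised to 1-colour Agilent arrays. Per the file headers, the authors deposited processed signal intensity from Agilent Feature Extraction 11.5.1.1 (10.7.3.1 in the submitters' processing notes), background-subtracted and not scaled between arrays, with spot and local background pixel intensity. The deposited 0 or 1 flags for each spot are another kind of value. The authors' deposited matrix of log2 values was used as an alternative; its columns followed the rebuilt values relative to the shp53 arrays. Of 516240 spot values, 1717 (0.333%) flagged as non-uniform or outlying were left out, and 0 were saturated. The log2 processed signal minus the array's 75th percentile over non-control spots was averaged per probe (39429 probes, 23899 kept, those that every array of some group measured well above background). Accessions were named through RefSeq's names for GRCm38.p6 (28330 probes with 1 name, 11099 without, of which 4855 were kept and not tested), and the probe with the highest mean stood for a gene (3824 genes had several kept).

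limma 3.58.1 (R 4.3.3, with data.table in version 1.17.8) fitted 1 mean per group on 12 arrays, with empirical Bayes moderation and Benjamini-Hochberg adjustment over the 14444 genes tested. With 3 arrays against 3, no exact permutation p could go below 0.1, so p-values are limma's. A group with no array well above background has only a bound: the brighter group's mean against, per array, the higher of the probe's own signal and the lowest signal well above background. Named were all members, up to 4 genes of each other list by adjusted p in RASV12 minus shp53, and the 15 genes of nearest profile; Il34, Cx3cl1, Blnk, Clec4a2 and Gpnmb were named after their values were seen, and some genes of these lists are not reported here. Slide and replicate number coincide, with 1 array of each group on a slide. Same-numbered arrays deviated together in every pair (over 0.1) only between the double-vector groups. The members and lists were chosen with earlier results of these data known.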

Additional observations from a re-analysis of the deposited data

How the results depend on the processing

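No member call in any comparison reversed under quantile or array-median scaling, the authors' deposited table, other filters, a trended spread, fits of 2 groups, the replicate block, or when arrays were left out or averaged. Normexp background correction (offset 50) left 7 calls in RASV12 against shp53, 8 in shp53-first and 3 in RASV12-first against shp53, and 0 elsewhere. These calls were all lower, against 1.5%, 1.62% and 1.75% lower of all tested genes, in that order. Elsewhere 0.353% of all genes were lower between the orders, 3.63% in RASV12-first and 0.845% in shp53-first against RASV12. The correction turned 21 of 130 called member results to positive log2 fold changes. In RASV12-first against shp53-first these were Lyz1 (0.23) and Mpeg1 (0.13). In RASV12-first against RASV12 they were C1qc (1.23), Tyrobp (0.013), Fcgr3 (1.19), Ms4a7 (0.10), Ms4a6d (1.14), Lyz2 (0.61), Adgre1 (0.54), Laptm5 (1.24), Cd53 (0.40), Mpeg1 (0.14), Cybb (1.32), Lcp1 (0.57), Slc11a1 (0.90), Msr1 (1.09) and C5ar1 (1.07). In shp53-first against RASV12 they were Ms4a6d (0.33), Laptm5 (0.48), Msr1 (0.28) and C5ar1 (0.28). When 77 spots whose local background exceeded the array's median 5-fold had it replaced (an alternative chosen after seeing the data), none reversed. Calls then numbered 27 in RASV12 against shp53, 0 between the orders (0 with an unadjusted p under 0.05 in limma), 2 and 1 in RASV12-first and shp53-first against RASV12. Of all tested genes 9.53%, 4.74%, 15.5% and 10.6% were lower in these comparisons, in that order. The cause was not tested.

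Only 8 members were well above background on all 12 arrays, of which 6 were called in each comparison with shp53 and 0 elsewhere. With no filter, shp53-first against RASV12 had 8. At an adjusted p under 0.01 the calls were 17 in RASV12 against shp53, 1 between the orders, 10 in RASV12-first and 6 in shp53-first against RASV12. Fits of 2 groups gave 19, 5, 27 and 21 in those 4 comparisons. Shares over all tested genes are not given for these settings or for fits leaving out 1 array. With the replicate block (also the slide) in the fit of 12 arrays the calls in the 4 comparisons were 31, 2, 18 and 12. Of all genes 13%, 8.53%, 21.7% and 15.1% were lower. The block gave 34 calls in both comparisons of double-vector cells with shp53. With 2 groups and the block (chosen after seeing the data) the 4 comparisons had 7, 7, 25 and 17 calls. Of all genes 12%, 9.63%, 14.6% and 5.86% were then lower. Averaging close pairs gave 3, 0, 3 and 0 there and 20 in shp53-first against shp53. Without the arrays that stood apart, the orders had 11 calls, RASV12-first against RASV12 32 and shp53-first against RASV12 30. Leaving out 1 array gave 18 to 37 calls in RASV12 against shp53, 1 to 5 between the orders, 33 to 36 in either double-vector group against shp53, 11 to 25 in RASV12-first and 7 to 24 in shp53-first against RASV12. Without shp53 replicate 2 those with most were 37, 5, 25 and 24. The array medians cannot be given from the authors' table, which is relative to shp53. Outliers were not sought in groups of 3. Signals near background limit every double-vector value.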
